A study of Mus musculus with 6 samples.

Results

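The genes described here are the Fc gamma receptors and their signalling partners in RAW264.7, a line of mouse cells with macrophage character. They are 8 genes picked by name from the 21958 gene rows of the deposited table, namely the receptors Fcgr1, Fcgr3, Fcgr4 and Fcgr2b, the adaptors Fcer1g and Tyrobp, the adaptor-coupled receptor Trem2 and the kinase Syk. Each of the 8 names was on 1 row, and each gene had enough reads to be tested. Messenger RNA was sequenced from 3 libraries of cells given lipopolysaccharide (LPS, a bacterial outer-membrane component) and co-cultured with BMSCs (commonly short for stromal cells of the bone marrow), and from 3 libraries of cells given LPS alone. Both groups had LPS, so every difference below is one between LPS with BMSCs and LPS alone. The study asks whether BMSCs and the growth factor bFGF on a printed scaffold change the inflammatory response. The sample labels name neither a scaffold nor bFGF for these libraries, and give no LPS dose or time, no species for the BMSCs and no word on contact between the cells. RAW264.7 is a single transformed line, and LPS replicate 3 is titled RAW264.9, against RAW264.7 in its other labels.

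Fc gamma receptors bind the constant part of IgG on opsonized targets. In the mouse, the activating receptors FcγRI, FcγRIII and FcγRIV are encoded by Fcgr1, Fcgr3 and Fcgr4. They lack a signalling motif of their own and work through the FcR gamma chain, encoded by Fcer1g, whose immunoreceptor tyrosine-based activation motif (ITAM) recruits the kinase SYK after phosphorylation by SRC-family kinases. FcγRIIB, encoded by Fcgr2b, carries an inhibitory motif (ITIM) that recruits the lipid phosphatase SHIP1 and sets the threshold for phagocytosis and cytokine release. TREM2, a lipid-sensing receptor of macrophages and microglia, signals in the same way through DAP12, the second ITAM adaptor, encoded by Tyrobp.

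The sequences that make the adaptors activating and Fcgr2b inhibitory are shown first, because the results turn on how these opposite classes moved. They are coding stretches of GENCODE M21 transcripts (GRCm38), found by translating the reading frame of each transcript and searching for the motif, with the tyrosine codons of the motif in capitals.
Fcer1g ITAM, chr1:171229889-171230072, minus strand: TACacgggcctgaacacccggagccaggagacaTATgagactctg
Tyrobp ITAM, chr7:30415670-30417382, plus strand: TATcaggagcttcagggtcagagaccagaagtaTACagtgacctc
Fcgr2b ITIM, chr1:170961071-170961088, minus strand: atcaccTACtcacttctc
The coordinates are outer bounds, since the Fcer1g and Tyrobp stretches of 45 bases each cross an intron. The ITAM pattern was in 1 of the 2 protein-coding M21 transcripts of Fcer1g and in both of Tyrobp. No protein-coding transcript of the other 6 genes held it. The shorter ITIM pattern is less specific, and in the 1 transcript searched per gene its letters also occurred in Fcgr1, Fcgr4, Fcer1g and Tyrobp.

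With co-culture the receptors moved apart. Fcgr1 fell, Fcgr3 and Fcgr4 rose, and Fcgr2b did not pass the test. The adaptors Fcer1g and Tyrobp rose, as did Syk and, by the smallest margin, Trem2. In all, 6 of the 8 genes were called higher and 1 lower at an adjusted p of 0.05 in edgeR's quasi-likelihood test, with a median log2 fold change of 0.58. Of all 11103 genes tested, 75.5% were called in either direction, 37.5% higher and 38.0% lower, with a median of 0.001. The libraries of the groups did not overlap for any of the 8 genes, 6 being higher and 2 lower with BMSCs, and the same held for 80.2% of all genes tested (39.8% higher and 40.4% lower). A call or a gap as such was therefore common in these data, and direction and size moved with gene length, as described below. With a trend on gene length and GC content taken out, the median was 0.187 for the 8 genes and -0.026 for all genes. The levels per library are CPM, read counts relative to library size after TMM scaling, and fold changes are on that scale unless another is named. Levels of different genes are compared only as FPKM, the deposited counts relative to gene length and library size.

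**Figure D1:**
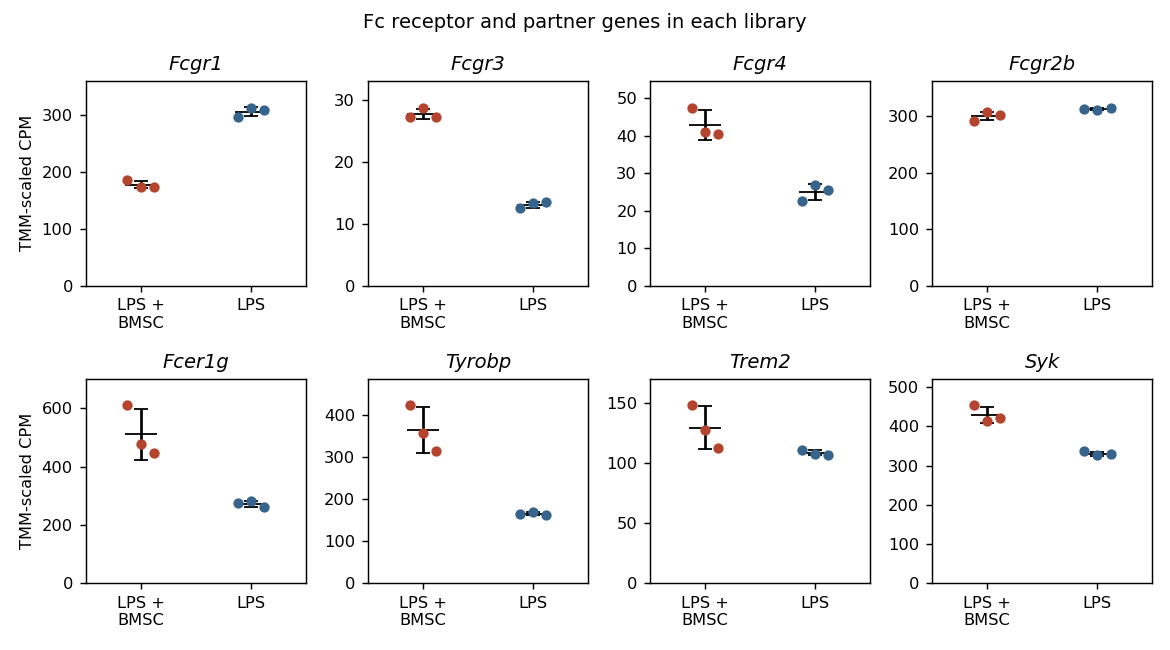
TMM-scaled CPM (y axis, from 0) of the 8 genes in the 3 LPS with BMSC libraries (left of each panel) and the 3 LPS libraries (right). Points are libraries and bars are the mean with 1 SD; Fcgr1 is lower with BMSCs, at 174 to 185 against 296 to 313 CPM, and the spread between libraries is widest for Fcer1g, Tyrobp and Trem2 with BMSCs.

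Total counts were 19720727 to 21964252 in the co-culture libraries and 17716460 to 22539884 in the LPS libraries. Relative to these totals, before TMM scaling, 3 counts, the detection floor used here, stood at 0.133 to 0.169 CPM. The least abundant of the 8 genes, Fcgr3, had 235 counts or more in every library. Replicates differed more from each other in co-culture (chi-square per degree of freedom of 5.16 to 26.8 between pairs) than with LPS alone (1.71 to 2.11). The labels call the replicates biological without saying whether cultures were separate, so p-values measure the spread between these libraries. Fold change also fell with gene length across all tested genes. The median log2 fold change was 0.90 for the 232 genes shorter than 1000 bases and 0.65 for the 1150 genes of 1000 to 2000 bases. It was 0.27 for 3385 genes of 2000 to 4000 bases, -0.16 for 4353 genes of 4000 to 8000 bases and -0.57 for 1983 longer genes. The fold change of each of the 8 genes is therefore given also with a trend on length and GC content taken out of each library, called the length and GC offset. For other genes it is given only in part, so a fold change shown without it may also have moved.

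**Figure D2:**
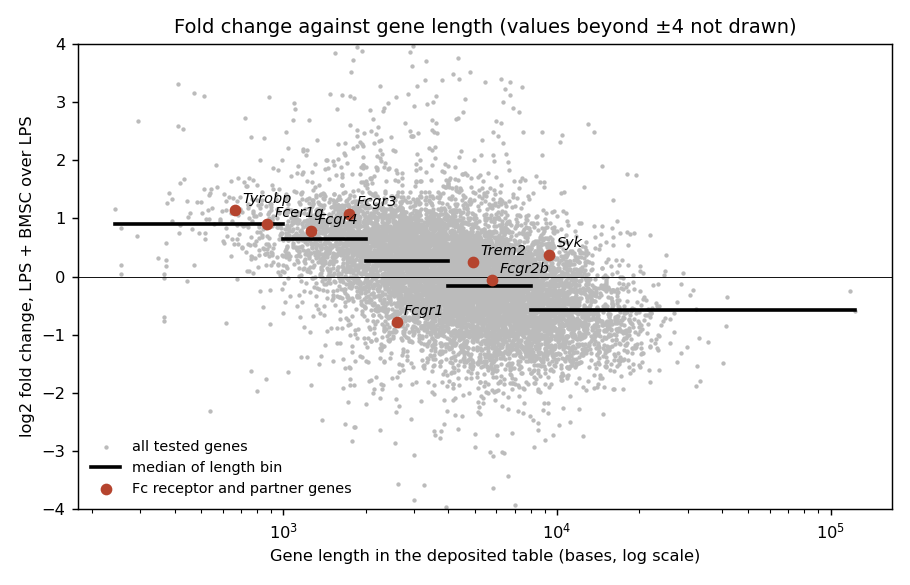
The log2 fold change of LPS with BMSCs over LPS (y axis) against gene length in the deposited table (x axis, log scale) for all tested genes (grey, those beyond ±4 not drawn), with the 8 genes in red and the median of each length bin as a black line. Tyrobp (1.14) and Fcer1g (0.91) lie near the median of their bin (0.90), Fcgr1 (-0.78) lies below its own (0.27) and Syk (0.38) above its own (-0.57).

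Among the activating receptors, Fcgr1 (ENSMUSG00000015947, GRCm38 chromosome 3 from 96282909 to 96293969, minus strand) encodes the high-affinity IgG receptor, which interferon gamma induces. It stood at 185.1, 174.0 and 173.7 CPM in the co-culture libraries and at 296.3, 312.5 and 308.4 CPM in the LPS libraries. All 3 co-culture libraries lay below all 3 LPS libraries. Fcgr1 was 1.72-fold lower (log2 fold change -0.78, SE 0.05, adjusted p 1.45e-06 in edgeR's quasi-likelihood test). The fall was larger with the length and GC offset (-1.16, adjusted p 2.35e-09). Its length bin, 2000 to 4000 bases, had 50.4% of genes called higher.

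Fcgr3 (ENSMUSG00000059498, chromosome 1 from 171051174 to 171064935, minus strand) encodes the low-affinity activating receptor. It was at 27.2, 28.68 and 27.14 CPM with BMSCs and at 12.47, 13.28 and 13.41 CPM with LPS alone, and the groups were well apart. Fcgr3 was 2.12-fold higher (log2 1.08, SE 0.08, adjusted p 1.85e-06, edgeR), and it stayed higher with the offset (0.61, adjusted p 2.24e-05). It shares the largest part of its sequence among the receptors, as 10.2% of the 50-base windows of its coding transcripts also occur in Fcgr2b transcripts. Of such Fcgr2b windows, 6.72% occur in transcripts of Fcgr3 or other genes. The windows of Fcgr1, Fcgr4, Fcer1g, Tyrobp, Trem2 and Syk occur in no other gene's M21 transcripts.

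Fcgr4 (ENSMUSG00000059089, chromosome 1 from 171018920 to 171029761, plus strand) encodes an activating receptor with a preference for certain IgG subclasses. It had 47.47, 40.92 and 40.36 CPM with BMSCs, against 22.61, 26.74 and 25.56 CPM with LPS alone. The lowest co-culture library was above the highest LPS library, and the gene was 1.72-fold higher (log2 0.78, SE 0.09, adjusted p 3.35e-05, edgeR). With the offset it did not pass (0.16, adjusted p 0.0749). Genes of its length class, 1000 to 2000 bases, were called higher in 71.2% of cases.

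The promoters of the 3 activating receptors are shown because the receptors differed in direction. Each runs from 250 bases before to 50 bases after a RefSeq start, on the gene's own strand (RefSeq, GRCm38.p6). Capitals mark matches, on either strand, to TTCNNNGAA (the spacing of a STAT site), GAGGAA (an ETS-family core) or a pair of GAAA 2 bases apart (the spacing of an interferon response element).
Fcgr1, chr3:96293920-96294219, minus strand: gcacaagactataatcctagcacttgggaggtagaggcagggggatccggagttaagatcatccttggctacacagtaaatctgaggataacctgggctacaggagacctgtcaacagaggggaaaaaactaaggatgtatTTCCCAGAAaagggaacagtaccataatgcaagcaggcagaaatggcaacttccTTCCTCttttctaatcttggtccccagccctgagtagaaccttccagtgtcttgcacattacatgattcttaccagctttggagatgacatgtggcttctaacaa
Fcgr4, chr1:171018676-171018975, plus strand: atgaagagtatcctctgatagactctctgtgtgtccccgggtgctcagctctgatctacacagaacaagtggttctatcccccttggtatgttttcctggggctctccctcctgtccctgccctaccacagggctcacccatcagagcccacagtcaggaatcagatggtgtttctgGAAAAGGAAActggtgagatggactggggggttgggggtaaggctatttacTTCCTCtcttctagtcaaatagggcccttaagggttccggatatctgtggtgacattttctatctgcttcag
Fcgr3, chr1:171059354-171059653, minus strand: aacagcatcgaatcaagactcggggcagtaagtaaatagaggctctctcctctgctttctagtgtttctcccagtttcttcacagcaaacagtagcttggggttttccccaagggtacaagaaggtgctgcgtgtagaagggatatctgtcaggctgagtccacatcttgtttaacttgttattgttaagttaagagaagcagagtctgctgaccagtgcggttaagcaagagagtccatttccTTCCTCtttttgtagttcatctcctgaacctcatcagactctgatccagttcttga
Of these 3, the TTCNNNGAA match was in Fcgr1 alone and the paired GAAA match in Fcgr4 alone, while all 3 held GAGGAA. None of the 3 held TGACGTCA, a cAMP response element. Among 32851 RefSeq promoters of the same length, 8.3% held TTCNNNGAA, 28.3% GAGGAA, 3.44% the paired GAAA and 1.79% TGACGTCA. Promoters were at hand for 7 of the 8 genes, and that of Tyrobp was not searched. Fcgr3 had 2 starts, of which 1 is shown, and at the other GAGGAA was also the only motif found. Outside the activating receptors, GAGGAA was found for Trem2 and at 1 of the 2 starts of Syk, and none of the 4 motifs was found for Fcgr2b or Fcer1g. A match describes letters only and says nothing of whether a factor was bound.

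Fcgr2b (ENSMUSG00000026656, chromosome 1 from 170958617 to 170976547, minus strand), the inhibitory receptor, stayed within a narrow range. It had 292.1, 307.5 and 302.6 CPM with BMSCs and 312.6, 310.8 and 315.4 CPM with LPS alone. The co-culture libraries were all slightly lower, by a log2 fold change of -0.06 (SE 0.05, adjusted p 0.314, edgeR; 95% interval -0.155 to 0.04). A miss of the threshold does not show that the level was equal, but this interval leaves out the changes seen for the activating receptors on the same scale. The direction depended on scaling. Fcgr2b was called lower with library totals in place of TMM scaling (-0.235, adjusted p 0.00286) and higher with the length and GC offset (0.27, adjusted p 0.000105). The table counts it over 5790 bases of exon, and an M21 antisense gene, Gm38204, overlaps it. The labels' protocols name no step that marks strand, and by them reads of this pair cannot be told apart where they overlap. The sources used here also do not give whether counting used strand.

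Because the receptors moved in different directions, their make-up changed. As a share of the summed FPKM of the 4 receptors, Fcgr1 made up 40.8%, 39.7% and 40.1% in the co-culture libraries and 59.1%, 59.4% and 59.1% in the LPS libraries. Fcgr1 was the leading receptor transcript in every library of both groups, by a smaller margin with BMSCs. Fcgr4 made up 21.6%, 19.2% and 19.2% with BMSCs and 9.30%, 10.5% and 10.1% with LPS alone. Fcgr3 made up 9.35 ± 0.41% with BMSCs and 3.77 ± 0.0602% with LPS alone (mean ± SD, n = 3 each), and so was the least abundant of the 4 in both groups. The share of the inhibitory Fcgr2b was 30.5 ± 1.47% with BMSCs and 27.1 ± 0.742% with LPS alone.

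**Figure D3:**
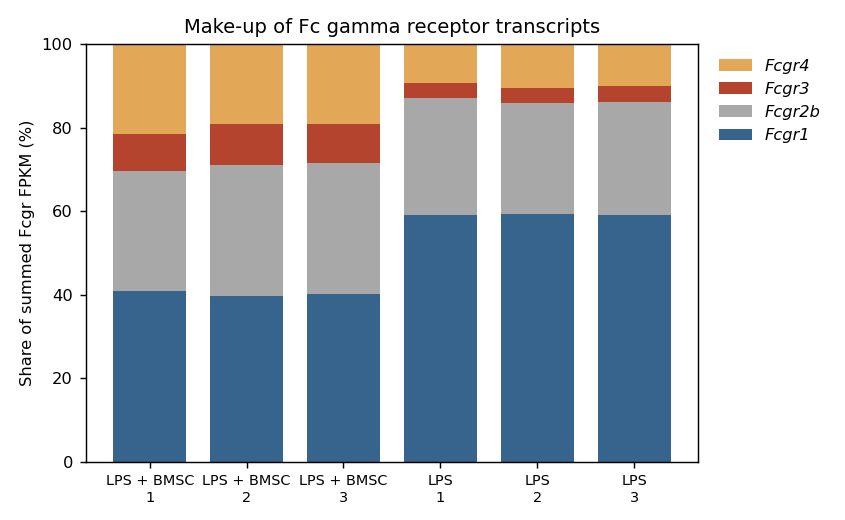
Share of the summed FPKM (y axis, percent) of Fcgr1, Fcgr2b, Fcgr3 and Fcgr4 in each library, with the 3 LPS with BMSC libraries left of the 3 LPS libraries. The Fcgr1 share is 39.7% to 40.8% with BMSCs and 59.1% to 59.4% with LPS alone, and those of Fcgr3 and Fcgr4 are larger with BMSCs.

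The ratio of the low-affinity activating receptor to the inhibitory one, Fcgr3 to Fcgr2b in FPKM, was 0.310, 0.311 and 0.299 with BMSCs and 0.133, 0.142 and 0.142 with LPS alone. The co-culture libraries were all higher, and the mean ratio differed 2.21-fold. The sum of Fcgr1, Fcgr3 and Fcgr4 over Fcgr2b went the other way, at 2.48, 2.19 and 2.20 with BMSCs and 2.59, 2.79 and 2.70 with LPS alone. These ratios do not depend on library scaling, but the length and GC offset moves their genes apart or together. With it, Fcgr3 (log2 0.61) exceeded Fcgr2b (0.27) by less, Fcgr4 (0.16) no longer exceeded it, and Fcgr1 (-1.16) stayed below it. Their level does depend on gene length, because the table's length covers all exons of a gene. For Fcgr2b that is 5790 bases, against 3544 for the longest protein-coding M21 transcript. Per base of the longest coding transcript, Fcgr1 made up 32.94% with BMSCs and 50.04% with LPS alone. Fcgr2b then made up 40.8% with BMSCs and 37.4% with LPS alone, so that it was the leading transcript with BMSCs on that scale.

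The adaptors were the most abundant of the 8 transcripts. Fcer1g (ENSMUSG00000058715, chromosome 1 from 171229572 to 171234365, minus strand) had 547.9 ± 79.5 FPKM with BMSCs and 331.5 ± 11.8 FPKM with LPS alone (mean ± SD, n = 3 each). On the CPM scale it stood at 609.2, 478.3 and 445.0 with BMSCs and at 274.5, 280.6 and 262.2 with LPS alone. Every co-culture library was above every LPS library, and the gene was 1.88-fold higher (log2 0.91, SE 0.10, adjusted p 2.71e-05, edgeR).

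Tyrobp (ENSMUSG00000030579, chromosome 7 from 30413760 to 30417585, plus strand) encodes DAP12. It stood at 423.7, 358.5 and 314.9 CPM with BMSCs, against 165.3, 170.7 and 163.0 CPM with LPS alone, and at 514.2 ± 65.9 FPKM and 265.2 ± 6.66 FPKM. The groups were far apart, with Tyrobp 2.20-fold higher (log2 1.14, SE 0.10, adjusted p 4.26e-06, edgeR). The ratio of Fcer1g to Tyrobp in FPKM was 1.10, 1.02 and 1.08 with BMSCs and 1.27, 1.25 and 1.23 with LPS alone, so Fcer1g was lower relative to Tyrobp with BMSCs. This order did not hold with the offset, where the log2 fold change was -0.15 for Fcer1g and -0.19 for Tyrobp.

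The rise of both adaptors rested on how the length trend was treated. They are the shortest of the 8 genes, at 874 bases for Fcer1g and 667 for Tyrobp, and of the 232 tested genes under 1000 bases 81.0% were called higher and 3.02% lower. Once the offset was applied both turned lower, Fcer1g to -0.15 (adjusted p 0.0243) and Tyrobp to -0.19 (adjusted p 0.00204). A change of these transcripts and the trend of short genes cannot be told apart here. Under the offset 4 of the 8 genes were higher (Fcgr3, Fcgr2b, Trem2 and Syk) and 3 lower (Fcgr1, Fcer1g and Tyrobp), beside 34.6% and 36.8% of all genes fitted that way (71.4% in either direction). The calls for Fcgr1, Fcgr3, Trem2 and Syk had the same direction in both fits.

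**Figure D4:**
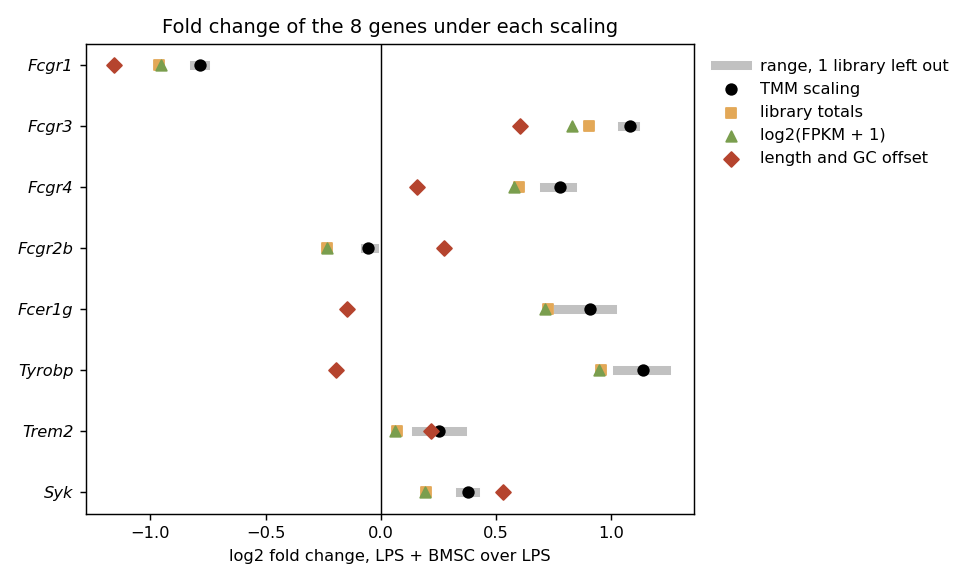
The log2 fold change of LPS with BMSCs over LPS (x axis) for each of the 8 genes with TMM scaling, library totals, log2(FPKM + 1) and the length and GC offset, and the range with 1 library left out (grey bar). Fcgr1 lies left of 0 and Fcgr3, Fcgr4, Trem2 and Syk right of it in all, whereas the offset puts Fcer1g and Tyrobp left of 0 and Fcgr2b right of it.

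Trem2 (ENSMUSG00000023992, chromosome 17 from 48346401 to 48354147, plus strand) had 147.6, 127.3 and 112.0 CPM with BMSCs and 110.5, 107.7 and 106.6 CPM with LPS alone. The lowest co-culture library was barely above the highest LPS library. The gene was 1.19-fold higher (log2 0.25, SE 0.09, adjusted p 0.026, edgeR). The call was lost with library totals (0.07, adjusted p 0.437) and on the log2(FPKM + 1) scale (0.06, adjusted p 0.483, limma). It was also lost without co-culture replicate 2 (adjusted p 0.0571) or without LPS replicate 1, 2 or 3 (adjusted p 0.0633, 0.0775 and 0.0834). Without co-culture replicate 1, in which Trem2 was highest, the log2 fold change was 0.155, and without co-culture replicate 3 it was 0.35. Because the rise of Tyrobp was larger, the FPKM ratio of Trem2 to its adaptor was 0.047, 0.0479 and 0.048 with BMSCs and 0.0902, 0.0851 and 0.0882 with LPS alone. The direction of this difference turned with the offset, where Trem2 was at 0.22 and Tyrobp at -0.19 on the log2 scale. The level of the ratio depends on length too, as the table counts Trem2 over 4946 bases and its longest coding transcript has 1088. Per base of coding transcript the ratio was 0.194 with BMSCs and 0.357 with LPS alone.

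Syk (ENSMUSG00000021457, chromosome 13 from 52583173 to 52648792, plus strand), the kinase that both adaptors recruit, had 452.9, 413.2 and 421.0 CPM with BMSCs and 336.0, 325.6 and 329.6 CPM with LPS alone. All co-culture libraries were higher, and Syk was 1.30-fold higher (log2 0.38, SE 0.05, adjusted p 0.000131, edgeR). It has 9362 bases in the table and thus belongs to the length class in which 11.6% of genes were called higher and 70.4% lower. With the offset its log2 fold change was larger (0.53, adjusted p 7.4e-07), and with library totals it was smaller (0.198, adjusted p 0.00458).

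The co-culture libraries also differed among themselves in these genes. Relative to the co-culture mean, replicates 1, 2 and 3 deviated by 0.27, -0.08 and -0.19 on the log2 scale for Fcer1g, by 0.22, -0.02 and -0.20 for Tyrobp and by 0.20, -0.01 and -0.19 for Trem2. The median gene under 1000 bases deviated by 0.17, -0.05 and -0.12 in the same libraries, and the median gene of 8000 bases or more by -0.08, 0.01 and 0.08. For the median gene of 4000 to 8000 bases, the length class of Trem2, the values were -0.026, 0.011 and 0.021. Fcgr3 (-0.02, 0.05 and -0.03) and Fcgr2b (-0.04, 0.03 and 0.01) varied little. Without co-culture replicate 1 the log2 fold change was 0.77 for Fcer1g and 1.03 for Tyrobp, both still called.

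Of the 8 genes, Fcgr2b, Fcgr4, Fcgr3 and Fcer1g lie within 276 kb of chromosome 1, from 170958617 to 171234365. That span holds 7 other protein-coding genes in M21, of which 3 were tested, and these did not share a direction. Sdhc, a subunit of respiratory complex II, was higher (log2 0.38, SE 0.05), and Tomm40l (-0.59, SE 0.12) and Apoa2 (-2.32, SE 0.42) were lower, all called by edgeR without the offset (adjusted p 0.000111, 0.000995 and 0.000635). These neighbours were chosen after their values were seen.

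By root mean square difference of centred log2 CPM over the 6 libraries, the profiles closest to Fcgr1 were those of Dync1h1 (0.04) and the interferon-induced Helz2 (0.04). Egln1 (0.03) and Jdp2 (0.04) were closest to Fcgr3, and Rpp40 (0.03) and Ndufa12 (0.03) to Fcgr4. Rtn3 and Wdr41 (0.01 each) were closest to Fcgr2b, Snrpg and Plekho1 (0.03 each) to Fcer1g, and the ribosomal protein gene Rpl13 (0.01) and Ninj1 (0.02) to Tyrobp. Agtrap (0.02) and Ip6k1 (0.03) were closest to Trem2, and Slc20a1 and Lars (0.01 each) to Syk. With 2 groups of 3 libraries, such a likeness mostly reflects an equal fold change.

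The wider pathway was described from 7 lists that leave out the 8 genes. Of 142 tested genes on them, 54 (38.0%) were called higher and 67 (47.2%) lower, against 37.5% and 38.0% of all genes. The list of other receptors that use the FcR gamma chain or DAP12 also held Hcst, which encodes another adaptor. It gave 8 higher and 3 lower of 12, with a median log2 fold change of 0.53. Hcst was among the higher (log2 0.88) and was called lower with the offset (log2 -0.43). The C-type lectin receptor Clec4d was 1.89-fold higher (2090 ± 126 CPM with BMSCs and 1105 ± 6.08 CPM with LPS alone). Trem1, an amplifier of inflammatory signalling through DAP12, was 1.62-fold higher (82.7 ± 2.64 and 51.0 ± 1.46 CPM). Pilrb2, a DAP12-coupled receptor, was 4.72-fold higher at a low level (7.36 ± 1.53 and 1.58 ± 0.376 CPM). Cd300c2 was 1.58-fold higher, but not with the length and GC offset (log2 -0.06). With the offset 5 genes of this list were higher and 4 lower, and their median was -0.04.

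Kinases and adaptors downstream of the receptors were mostly lower. Of 36 tested, 20 were lower and 7 higher, the median being -0.21, and with the offset 9 were higher and 20 lower. The inositol trisphosphate receptors Itpr1 and Itpr3, which release stored calcium, fell 2.94-fold and 1.65-fold. Sos2, a RAS exchange factor, fell 2.28-fold, and the transcription factor Nfatc2 fell 1.79-fold. Adjusted p in edgeR ranged from 2.74e-07 (Itpr1) to 4.4e-06 (Sos2) for these 4. Without and with the offset, Itpr1 was at log2 -1.55 and -1.03, and Itpr3 at -0.72 and -0.64. In that order Sos2 was at -1.19 and -0.65, and Nfatc2 at -0.84 and -0.66.

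The list of inhibitory receptors and phosphatases was split. It also held ligases, kinases and adaptors, such as Cbl, Csk and Dok1. Some of its phosphatases, such as Ptprc and Ptpn11, can also promote signalling. Of its 31 tested genes, 15 were lower and 11 higher, the median being -0.11. The ITIM receptors Pilra (2.50-fold, 116 ± 6.46 CPM with BMSCs and 46.3 ± 1.27 CPM with LPS alone) and Clec4a2 (1.75-fold) were higher. Other receptors of the list were lower, such as Lilrb4a (2.51-fold, 262 ± 44.8 CPM with BMSCs and 657 ± 17.7 CPM with LPS alone) and Cd200r1 (2.76-fold). The ubiquitin ligase Cbl, which helps degrade activated SYK, was 2.09-fold lower (log2 -1.07, and -0.51 with the offset). Pag1, which anchors the kinase CSK, was 2.43-fold lower (log2 -1.28, and -0.84 with the offset). Pilra, Clec4a2, Lilrb4a, Cd200r1, Cbl and Pag1 all had the same direction with the offset. It put the list's median at 0.05, with 12 of its genes up and 11 down.

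**Figure D5:**
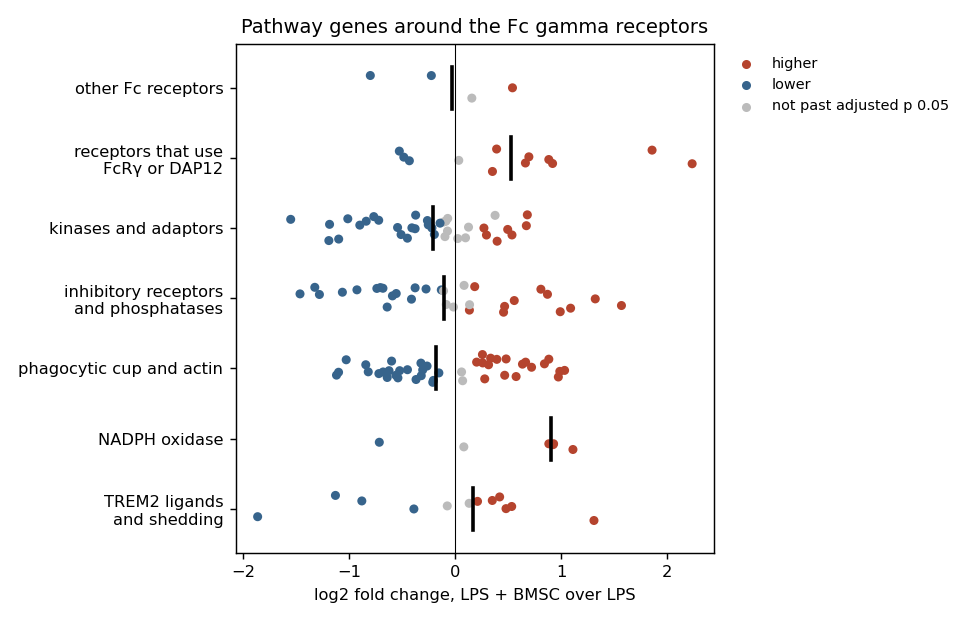
The log2 fold change of LPS with BMSCs over LPS (x axis) of the tested genes of 7 lists (y axis, points spread vertically for visibility), coloured by call in edgeR's test, with the list median as a black line. Medians range from -0.21 for kinases and adaptors to 0.90 for NADPH oxidase, which is at 0.18 with the length and GC offset.

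Genes for the phagocytic cup and its actin gave 18 higher and 22 lower of 42, with a median of -0.18, and with the offset 17 higher and 20 lower. Within that list the Arp2/3 subunits Arpc3 and Arpc2 rose 2.05-fold and 1.55-fold, while the exchange factor Dock8 fell 2.17-fold and Wasf2, of the WAVE complex, fell 1.65-fold. With the offset the log2 fold changes were 0.76 for Arpc3, 0.38 for Arpc2, -0.86 for Dock8 and -0.735 for Wasf2. NADPH oxidase genes, which make the oxidative burst triggered by Fc receptors, gave 4 higher and 1 lower of 6, and with the offset 3 higher and 2 lower, with medians of 0.90 and 0.18. Ncf4 (1.90-fold) and Cyba (2.16-fold) were higher, Cyba not with the offset (log2 0.03) and Ncf4 by less (0.32). The catalytic subunit gene Cybb was 1.64-fold lower (1315 ± 70.1 CPM with BMSCs and 2160 ± 20.4 CPM with LPS alone). With the offset it was lower by less (log2 -0.25 against -0.72). All named genes of both lists had an edgeR adjusted p of 5.52e-06 (Ncf4) or less.

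TREM2 ligands and shedding genes gave 6 higher and 4 lower of 12, with a median of 0.17. The proteases that cleave TREM2 from the surface were lower, Adam10 2.19-fold (104 ± 13.3 CPM with BMSCs and 227 ± 4.32 CPM with LPS alone) and Adam17 1.84-fold. With the offset they were lower by less (log2 -0.745 against -1.13 for Adam10 and -0.44 against -0.88 for Adam17). Psenen, a gamma-secretase subunit, was 2.48-fold higher (log2 1.31, and 0.46 with the offset), and Ms4a4c was 3.64-fold lower at a low level (0.858 ± 0.196 and 3.12 ± 0.407 CPM). With the offset 3 genes of the list were higher and 5 lower. Other Fc receptors gave 1 higher and 2 lower of 4 tested. The cytosolic antibody receptor Trim21, an interferon-induced gene, was 1.74-fold lower. Fcrl1 was 1.17-fold lower and Fcgrt, the neonatal Fc receptor, 1.46-fold higher, and neither passed with the offset (log2 -0.09 and -0.05).

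The summed FPKM of macrophage markers was 16710 to 17960 with BMSCs and 11700 to 12080 with LPS alone. Most of it came from Lyz2 (mean 12800 and 8860 FPKM) and Cd14 (3147 and 1936 FPKM), and Cd163 was at 0. Of the 14 markers 11 were tested, and 5 were higher and 1 lower. With the offset 3 were higher and 4 lower. Lyz2 then moved to 0.11 against 0.71 on the log2 scale without it, and Cd14 to 0.26 against 0.88. In bulk RNA, fewer cells of a type and less RNA per cell cannot be told apart. Of 18 stromal markers, 5 were at 0 and 9 under 3 counts in every library, Col1a2 and Col3a1 among those at 0. Their summed FPKM was 9.82 to 10.6 with BMSCs and 7.55 to 7.75 with LPS alone, most of it from Acta2 and Eng. Of the 4 stromal markers tested, 1 was higher, 1 lower and 2 not called, with a median log2 fold change of 0.06. With the offset 2 were higher and 1 lower. The 1 called higher was Acta2, a smooth muscle actin, at 1.80-fold (18.3 ± 1.84 CPM with BMSCs and 10.2 ± 0.553 CPM with LPS alone, edgeR adjusted p 3.43e-05). Acta2 was also higher with the offset (log2 0.48, adjusted p 0.000508). Eng was not called (log2 0.16, edgeR adjusted p 0.308). Most markers of other cells that carry these receptors were at or near 0, except Lck and, with BMSCs, Camp. Ms4a1 of B cells, Ncr1 and Cd3e of NK and T cells, Ly6g and Ltf of neutrophils and Fcer1a of mast cells had no count in any library. The highest sums over those 4 lists were 5.33 FPKM with BMSCs and 2.12 FPKM with LPS alone. Within them Camp, a neutrophil granule gene, was 5.26-fold higher (3.39 ± 0.813 and 0.636 ± 0.159 CPM; log2 2.40, and 1.17 with the offset). Lck, a T cell kinase, was 1.81-fold higher (10.2 ± 0.893 and 5.64 ± 0.0785 CPM; log2 0.86, and 0.46 with the offset). Mmp8 of the neutrophil list was lower (0.393 ± 0.153 and 0.851 ± 0.0978 CPM, edgeR adjusted p 0.0134), but not with DESeq2 (adjusted p 0.0684). Cd79a, Cd79b, Eomes, Kit and Cma1 averaged at most 0.307 CPM with BMSCs and 0.239 CPM with LPS alone. The part of these other cells in the receptor results was not tested.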

How the data were processed

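The data are 1 deposited table that gives, per gene, the counts and FPKM of 6 libraries. Per the labels' protocols, RNA was Trizol-extracted, captured on oligo(dT) beads and made into cDNA from random hexamers, with no step that marks strand. HISAT2 2.0.5 and the mm10 build are named in the submitters' processing notes, and no source used here names the counting tool. Counts as deposited are not normalized, and the deposited FPKM use the table's gene length. The table has 1 emptied row. Positions come from GENCODE M21 (GRCm38) by Ensembl identifier, never from the table.

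The main test on the counts was the robust quasi-likelihood fit of edgeR 4.0.16 in R 4.3.3. It used TMM scaling, the default expression filter, which kept 11103 genes, and a design holding group alone, with Benjamini-Hochberg adjustment over all genes kept. The biological coefficient of variation was 7.05%. Both fits were tested on simulated data and recovered most changed genes, but with a GC trend added to the simulated co-culture libraries the fit without the offset also called many unchanged genes. No length trend was simulated, so the length part of the offset was not tested. Ratios were computed from FPKM without a test. The offset fits natural splines (5 degrees of freedom each) of log count on gene length and M21 GC content in each library. Alternatives also used DESeq2 1.42.0 and limma 3.58.1. No pair of replicates agreed within sampling noise. The members and gene lists were chosen with earlier results of these data known. Named genes were up to 4 called genes per list by smallest p, the 2 most abundant per marker list, and the 2 profiles closest to each gene among those averaging 3 or more in log2 CPM. Lilrb4a and Cd200r1 were named outside this rule, to show inhibitory receptors that were lower. Some genes that this rule selects are not reported here. Intervals are 1.96 SE either side. Motifs and neighbouring genes were chosen after seeing the data.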

Additional observations from a re-analysis of the deposited data

How the results depend on the processing

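Under 16 alternative fits, Fcgr1 (-1.16 to -0.76), Fcgr3 (0.61 to 1.10) and Syk (0.19 to 0.53) kept their direction and call. With the length and GC offset, and with the replicate block and offset together, Fcgr4 gave 0.156 and 0.157 (adjusted p 0.0749 and 0.108). In the same order Fcgr2b gave 0.273 and 0.272, Fcer1g -0.148 and -0.15, and Tyrobp -0.194 and -0.195. Fcgr2b was called lower with library totals (-0.235), log2(FPKM + 1) (-0.232) and log2(FPKM + 0.1) (-0.236), and Trem2 lost its call there (0.072, 0.063 and 0.065). Leaving out 1 library moved Trem2 from 0.155 to 0.352 and lost its call in 4 of 6 fits. The median of all tested genes was 0.001 with TMM, -0.177 with library totals and -0.026 with the offset, and the cause of the length trend was not tested. The calls were 4160 higher and 4222 lower with TMM, and 3222 and 5184 with library totals.

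No sign of pairing by replicate number was seen. Same-numbered libraries correlated at -0.042, -0.024 and 0.04 in their deviations from the group means, and libraries of unlike number at -0.097 to 0.1. With 3 libraries per group, such values cannot show whether cultures were shared. The replicate block alone changed no call among the 8 genes (Trem2 0.244) and left 8217 genes called, against 8382.

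Among the lists, higher calls for other Fc receptors numbered 0 with library totals, with the offset and with block and offset. For receptors that use FcR gamma or DAP12 they numbered 5 with the offset, with or without the block. For the list of inhibitory receptors and phosphatases they numbered 7 on both log2 FPKM scales. NADPH oxidase had 2 lower calls with the offset, with or without the block, and TREM2 ligands and shedding 3 higher with the offset. Of 541 alternative values for the genes named by rule, 525 kept direction and call and 9 turned direction. With the offset, and with block and offset, these were Fcgrt (-0.048, -0.049), Cd300c2 (-0.062, -0.062) and Eng (-0.14, -0.122). Eng also turned with library totals (-0.023) and on the log2(FPKM + 1) and log2(FPKM + 0.1) scales (-0.004, -0.002).

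Adding 1 FPKM gave an Fcgr3 to Fcgr2b ratio of 0.321 with BMSCs and 0.154 with LPS alone, a Trem2 to Tyrobp ratio of 0.0495 and 0.0912, and LPS shares of 58.5% for Fcgr1 and 4.16% for Fcgr3. Per base of the longest coding transcript, an alternative added after seeing the data, the ratios with BMSCs and with LPS alone were 0.242 and 0.11 for Fcgr3 to Fcgr2b, 1.46 and 1.67 for Fcgr1 + Fcgr3 + Fcgr4 to Fcgr2b, 1.22 and 1.43 for Fcer1g to Tyrobp and 0.194 and 0.357 for Trem2 to Tyrobp. The shares were 32.94% and 50.04% for Fcgr1, 40.8% and 37.4% for Fcgr2b, 9.87% and 4.11% for Fcgr3 and 16.4% and 8.42% for Fcgr4. Depth did not limit these genes, as each had 235 counts or more in every library.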
